A study of Mus musculus with 4 samples.

Results

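The Prl7 and Prl8 genes are a pair of subfamilies of the mouse prolactin family. Their 10 members were taken by symbol, each matched to 1 Entrez identifier, out of 27179 identifiers counted. The 5 Prl7 genes are Prl7a1, Prl7a2, Prl7b1, Prl7c1 and Prl7d1, and the 5 Prl8 genes are Prl8a1, Prl8a2, Prl8a6, Prl8a8 and Prl8a9. RNA from liver was sequenced in bulk in 2 fasted and 2 unfasted libraries, all labelled as male wild-type C57BL/6 mice. The fasted mice were kept overnight without food but with water, and the unfasted mice had free access to food. The study compared the groups to see how nutritional status sets the state of the liver before acetaminophen is given. The labels give no age, and do not say whether the 2 libraries of a group came from separate animals, so the spread behind each p-value is that of these libraries alone and may be technical. The members were chosen by their counts in the fasted and unfasted libraries, which were already known. Their levels and the difference between the groups are therefore a description, with no test.

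Prolactin and its relatives are secreted hormones and cytokines. In mice the family has expanded into a cluster of genes on chromosome 13, most of which are used in the placenta and in the decidua, the lining that the uterus forms in pregnancy. Placental lactogens such as Prl3d1 and Prl3b1 act through the prolactin receptor, as prolactin does. Most other members, those of Prl7 and Prl8 among them, are called nonclassical because they are not known to use that receptor. They are products of spongiotrophoblast cells, trophoblast giant cells, invading trophoblast or decidual cells, and are not known as products of the liver.

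Several values of the libraries bear on these genes. The groups follow the sample titles, whereas another label field gives fasting for all 4 libraries. Depth was unequal, with total counts of 13541405 and 13528015 for the fasted against 36975921 and 36943535 for the unfasted libraries. Xist, the RNA that coats the silenced X chromosome in female cells, had 2 and 1 counts in the fasted libraries, against 25772 and 26316 in the unfasted libraries, which goes against the male label of the unfasted libraries. The 14 hepatocyte markers, headed by albumin (Alb), checked the labelled tissue. Their sum was 113633 and 113987 CPM (counts per 1000000 counts of the library) in the fasted libraries, against 43596 and 43378 CPM in the unfasted libraries, so that hepatocyte RNA was present in all 4.

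The members were near 0 in the fasted libraries and abundant in the unfasted libraries. Prl7 had 0 counts in both fasted libraries, against 102837 and 103161 in the unfasted libraries. Prl8 had 1 count in each fasted library, against 525822 and 532827 counts in the unfasted libraries. All 10 members together made up 1.70% and 1.72% of the unfasted counts (Wilson 95% intervals 1.696 to 1.704% and 1.717 to 1.726%, counting error only). In the fasted libraries the 10 members made up 7.38e-06% and 7.39e-06% of the counts, with upper interval limits of 4.18e-05% and 4.19e-05%, and the 0 counts of Prl7 over both libraries allow a share of up to 1.11e-05%. All 10 members passed the filter on low counts, and in each of them both fasted libraries lay below both unfasted libraries. Of the 15470 genes tested, 67.3% were lower in the fasted libraries in the same sense, without overlap in CPM, and 45.0% were called lower by edgeR's quasi-likelihood test. Since this contrast chose the members, nothing is read from their count. As in any bulk sample, fewer cells of a type and less RNA per cell cannot be told apart.

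**Figure D1:**
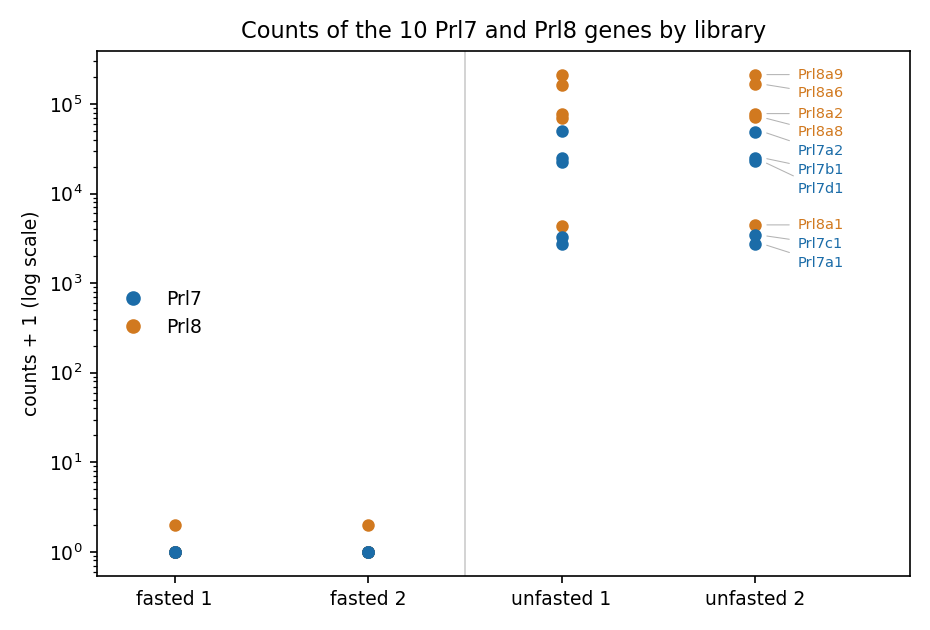
Counts plus 1 of each Prl7 and Prl8 gene (vertical axis, log scale) in the 2 fasted and 2 unfasted libraries, 1 point per gene and library, coloured by subfamily. In each fasted library the members lie at 0 or 1 count and many points coincide, while the unfasted libraries run between 2735 and 212871 counts.

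The most abundant members, Prl8a9 and Prl8a6, are Prl8 genes of the prolactin-like protein C group. The genes of this group are known in rodents as products of spongiotrophoblast and giant cells. Prl8a9 (Entrez 67310), also called PLP-C beta, had 0 and 1 counts in the fasted libraries, against 210817 and 212871 in the unfasted libraries. It was 155155-fold lower in the fasted libraries in CPM, with an exact counting interval of 27847 to 6128320 that is wide because it rests on a single count. Prl8a6 (Entrez 19112), PLP-C alpha, had 1 and 0 counts in the fasted libraries, against 164655 and 166563 in the unfasted libraries, and was 121293-fold lower (interval 21770 to 4790810). These were the only members with a count in a fasted library. Prl8a8 (Entrez 74188), PLP-C gamma, had 0 counts in both fasted libraries, against 69503 and 70802 in the unfasted libraries. The fourth gene of the group, Prl8a1 (Entrez 73244) or PLP-C delta, also had 0 counts in both fasted libraries but 4337 and 4467 in the unfasted libraries, far below the other three. For these and all other members at 0 in the fasted libraries the fold is a bound, set against a floor of 3 counts over the fasted group. It was at least 17127-fold lower for Prl8a8 and at least 1075-fold lower for Prl8a1.

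Prl8a2 (Entrez 13529) encodes decidual prolactin-related protein, known in the mouse as a product of decidual cells. It had 0 counts in both fasted libraries, against 76510 and 78124 in the unfasted libraries, at least 18876-fold lower in the fasted libraries. Its level stood between those of Prl8a6 and Prl8a8.

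Among the Prl7 genes the highest was Prl7a2 (Entrez 19114), prolactin-like protein F. It had 0 counts in both fasted libraries, against 49411 and 49103 in the unfasted libraries, and was at least 12025-fold lower in the fasted libraries. Its near relative Prl7a1 (Entrez 19113), prolactin-like protein E, had 0 counts in both fasted libraries, against 2747 and 2735 in the unfasted libraries, at least 669-fold lower. In the mouse both proteins are known to act on the precursors of blood platelets and other blood cells, and gp130 has been named as part of the receptor of prolactin-like protein E. Prl7a1 was the lowest of all members.

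The remaining Prl7 genes lay between these. Prl7b1 (Entrez 75596), prolactin-like protein N, is known from trophoblast cells that invade the uterus. It had 0 counts in both fasted libraries, against 25097 and 25048 in the unfasted libraries, at least 6121-fold lower in the fasted libraries. Prl7d1 (Entrez 18814), proliferin-related protein, an inhibitor of blood vessel growth in the mouse, had 0 counts in both fasted libraries, against 22280 and 22869 in the unfasted libraries, at least 5511-fold lower. Prl7c1 (Entrez 67505), prolactin-like protein O, had 0 counts in both fasted libraries, against 3302 and 3406 in the unfasted libraries, at least 819-fold lower. Over the 10 members the median log2 fold change was -13.07, with genes at 0 taken at their bound and on CPM, beside -0.63 over all genes tested when scaled to total counts only.

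Levels of different genes were compared inside the unfasted libraries as CPM per kilobase of coding sequence. The coding sequences are of similar length, 720 to 834 bases, and the order of the members was the same with and without division by coding length. Reads can also fall outside the coding sequence, and the annotated transcripts differ more, from 876 words of 50 bases for Prl7b1 to 3784 for Prl7d1. Division by transcript length was not tried, so the order of members close in level may depend on it. Prl8a9 averaged 7928 ± 59.3 CPM per kilobase and Prl8a6 6223 ± 54.6 (SD, n = 2 each, as for all levels here). They were followed by Prl8a2 at 2905 ± 44.7 and Prl8a8 at 2276 ± 31.2 CPM per kilobase. Prl7a2 came next at 1756 ± 6.68 CPM per kilobase, and Prl7b1 at 901 ± 0.687 and Prl7d1 at 834 ± 15.9 lay close together. The lowest levels were those of Prl8a1 at 165 ± 3.56, Prl7c1 at 121 ± 2.72 and Prl7a1 at 92.9 ± 0.230 CPM per kilobase. Every Prl8 gene except Prl8a1 thus stood above every Prl7 gene. In all 9 pairs of neighbours in this order the ranges of the 2 libraries did not overlap. The narrowest step was that of Prl7b1 over Prl7d1, 1.08-fold, and the widest that of Prl7d1 over Prl8a1, 5.04-fold.

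**Figure D2:**
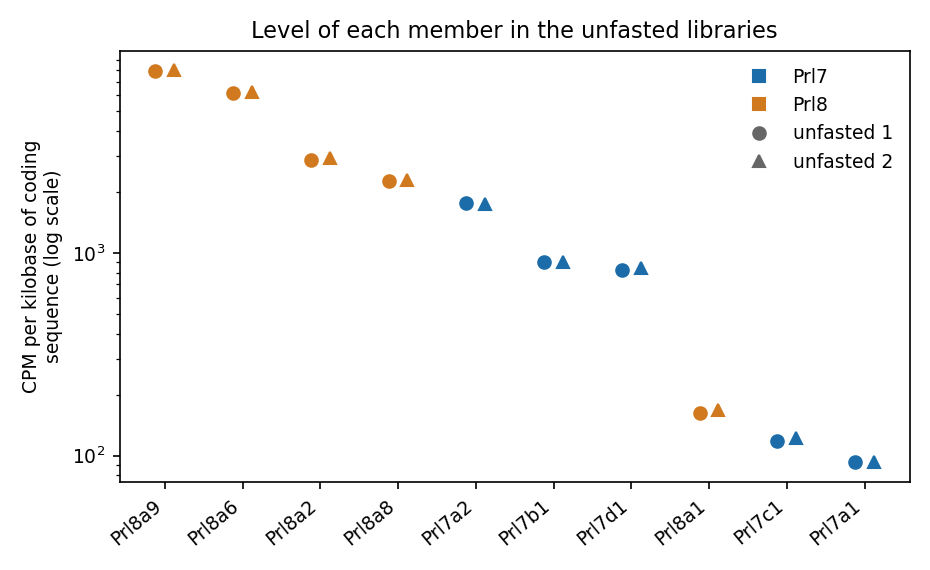
CPM per kilobase of coding sequence (vertical axis, log scale) of the 10 members in unfasted library 1 (circles) and unfasted library 2 (triangles), ordered from high to low and coloured by subfamily. The libraries lie almost on each other for each gene, and the wide step between Prl7d1 at 834 and Prl8a1 at 165 CPM per kilobase splits the order.

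A small number of members carried most of the counts. Prl8a9 held 33.5% and 33.5% of the members' counts in unfasted libraries 1 and 2 (Wilson 95% intervals 33.4 to 33.7% and 33.4 to 33.6%), and Prl8a6 held 26.2% and 26.2% (26.1 to 26.3% in both). Prl8a2 held 12.2% and 12.3%, Prl8a8 11.1% and 11.1%, and Prl7a2 7.86% and 7.72%. The smallest shares were those of Prl8a1 with 0.690% and 0.702%, Prl7c1 with 0.525% and 0.536%, and Prl7a1 with 0.437% and 0.430%. Prl8 as a whole was 5.24 and 5.29 times Prl7 in CPM per kilobase. Within the unfasted libraries Prl8a9 ranked 15th and Prl8a6 19th by counts among all genes, and Prl8a2, Prl8a8 and Prl7a2 ranked 50th, 53rd and 84th. At the other end Prl7c1 ranked 1818th and Prl7a1 2349th.

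The unfasted libraries gave the members in nearly the same proportions. The CPM ratio of library 1 to library 2 was between 0.970 and 0.989 for the Prl8 genes and between 0.969 and 1.01 for the Prl7 genes. All 5 Prl8 genes were lower in library 1, as were 2 of the 5 Prl7 genes, Prl7c1 and Prl7d1. The exact counting interval of the ratio, scaled to total counts, excluded 1 for 5 members, Prl8a9, Prl8a6, Prl8a2, Prl8a8 and Prl7d1. The share of all genes with such an interval was not taken, so nothing is read from this count. Over 16086 genes the unfasted libraries differed only slightly more than sampling noise, with a chi-square per gene of 1.13.

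The other 16 genes of the prolactin family together had 2 and 1 counts in the fasted libraries, against 537229 and 541017 in the unfasted libraries, and the Prl7 and Prl8 genes held 53.9% and 54.0% of all prolactin family counts there. Prl3b1, placental lactogen II, was the highest gene of the family, with 1 and 0 counts in the fasted libraries, against 371326 and 374066 in the unfasted libraries. Prl2a1 had 1 and 0 counts in the fasted libraries, against 50213 and 49979 in the unfasted libraries, and Prl2b1 had 0 and 1, against 39597 and 39964. Prolactin itself, the product of the pituitary gland (Prl), had the lowest count summed over the unfasted libraries, with 0 and 0 counts in the fasted libraries, against 9 and 6 in the unfasted libraries. Of the 16 genes, 13 passed the filter on low counts, and only through the unfasted libraries, so nothing is read from their calls in the test.

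The members lie close together within the cluster on chromosome 13. Prl2b1 and the noncoding gene Gm40836 sit between Prl8a2 and Prl8a6, and the pseudogene Gm11359 sits between Prl7a2 and Prl7d1. In the RefSeq order of build GRCm38.p6, another build than that of the counts, the Prl8 genes come in the order Prl8a2, Prl8a6, Prl8a8, Prl8a9 and Prl8a1, and the Prl7 genes follow as Prl7b1, Prl7a1, Prl7a2, Prl7d1 and Prl7c1. Next to each other, Prl8a9 was 48.4 and 47.5 times Prl8a1 and Prl7a2 was 18.9 and 18.9 times Prl7a1, in CPM per kilobase in unfasted libraries 1 and 2. Level against order had Spearman's rho of -0.72 and Pearson's r of -0.64 on the log2 level over the 10 genes, which share their libraries and are not independent. The Prl8 genes, most of them higher, come first, so these values mix order with subfamily. Inside each subfamily levels rose and fell along the order. They were 2905, 6223, 2276, 7928 and 165 CPM per kilobase for Prl8 and 901, 92.9, 1756, 834 and 121 for Prl7. Of the 10 genes that flank the cluster, 5 on each side, 4 were in the files. Gm11351, 1700092E19Rik and Hdgfl1 on one side had at most 1 count in any library. On the other side 2610307P16Rik had 1 and 1 counts in the fasted libraries, against 31 and 29 in the unfasted libraries. The high counts of the unfasted libraries thus stood inside the cluster and not in these 4 flanking genes.

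**Figure D3:**
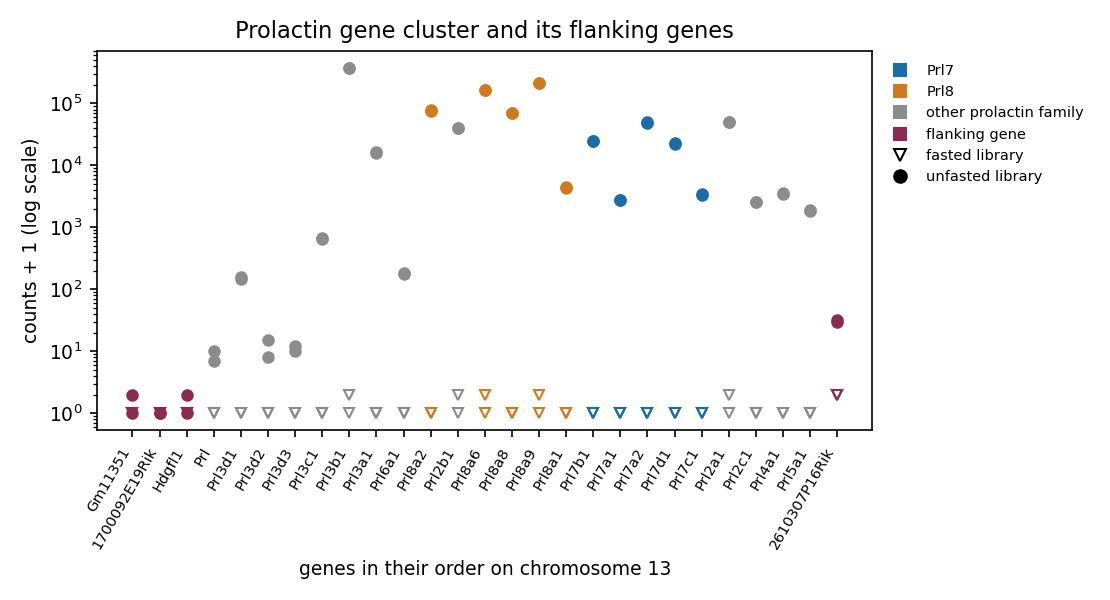
Counts plus 1 (vertical axis, log scale) of 23 prolactin family genes and 4 flanking genes in their order along chromosome 13, with open triangles for the 2 fasted libraries and filled circles for the 2 unfasted libraries. Fasted counts stay at 0 or 1 throughout, and unfasted counts reach 374066 for Prl3b1 inside the cluster but no more than 31 for a flanking gene.

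Some members alike in sequence were unlike in level. Aligned coding sequences shared 59.7 to 75.7% of their bases within Prl7 (median 63.6%, 10 pairs), 68.2 to 80.8% within Prl8 (median 75.0%, 10 pairs) and 53.5 to 62.3% between the subfamilies (median 58.0%, 25 pairs). The most alike pair was Prl8a6 and Prl8a9 at 80.8%, and these were also the highest in level. Prl8a1 shared 74.9% of its bases with Prl8a9 and Prl7a1 shared 75.7% with Prl7a2, although the members of either pair lay far apart in level. The decidual gene Prl8a2 was the least alike of its subfamily, at 68.2 to 75.1% to the other Prl8 genes. Over all 45 pairs, identity and the absolute log2 ratio of levels had Spearman's rho of -0.02 and Pearson's r of -0.01, given without a test because pairs share genes. Taken apart, rho was 0.24 within Prl7, 0.10 within Prl8 and 0.23 between the subfamilies.

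**Figure D4:**
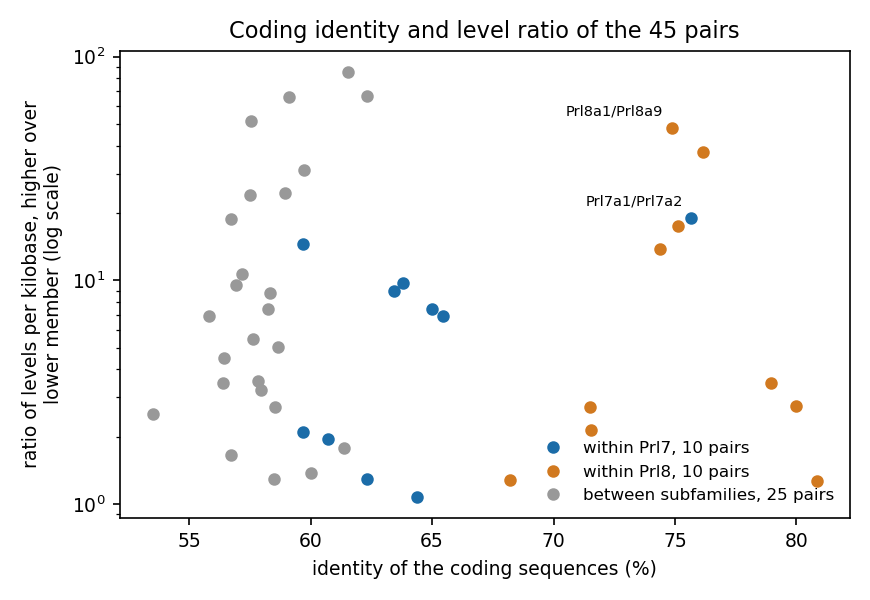
Ratio of levels per kilobase in the unfasted libraries, higher over lower member (vertical axis, log scale), against identity of the coding sequences in percent, for the 45 pairs of members coloured by subfamily. Pairs within Prl8 near 75% identity range widely in ratio, among them Prl8a1 and Prl8a9 close to 48, and the most alike pair lies at 1.27.

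Such relatives can share reads. Of all 50-base words in the annotated transcripts of each member, 7 members shared none with any other gene. Prl7d1 shared 20 of 3784 words, 0.529%, with Prl2c2, Prl2c3 and Prl2c5. Prl8a1 shared 8.79% of its words with many genes, and Prl7c1 shared 16.4% with 4 predicted genes. Counts of these members are uncertain to that extent, since the handling of reads that fit several places is not given in the sources used here.

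The promoters of the members were compared next, since the genes are abundant in the same libraries. RefSeq windows of build GRCm38.p6 were found for 8 of the 10 members, all but Prl7b1 and Prl8a2. Windows of 250 bases before to 50 after the start shared 78.6 to 83.1% of aligned bases within Prl8 and 61.1 to 77.0% within Prl7. In 7 of the 8 windows of 250 bases before to 50 after the start there was a TATATA, a form of TATA box, against 5.94% of 27025 promoters of that length. The stretches of 40 bases around it are shown because most members with a window hold it. They are on the minus strand of chromosome 13, 5′ to 3′, with TATATA in capitals.
Prl7a1, chr13:27642499-27642538: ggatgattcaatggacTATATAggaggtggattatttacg
Prl7a2, chr13:27668044-27668083: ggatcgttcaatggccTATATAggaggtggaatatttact
Prl7d1, chr13:27716743-27716782: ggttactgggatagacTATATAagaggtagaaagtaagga
Prl8a1, chr13:27582177-27582216: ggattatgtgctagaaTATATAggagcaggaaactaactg
Prl8a6, chr13:27438654-27438693: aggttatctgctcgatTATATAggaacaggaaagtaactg
Prl8a8, chr13:27513221-27513260: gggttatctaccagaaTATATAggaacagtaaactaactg
Prl8a9, chr13:27564610-27564649: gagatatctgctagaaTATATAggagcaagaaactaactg
The TATATA began 27 to 31 bases before the RefSeq start in 6 of these and 11 bases after it in Prl8a6, and Prl7c1 had none. In 6 of the 7, all but Prl7d1, it went on as TATATAGG, which 0.581% of all windows held. TATATA and TATATAGG were chosen after the sequences had been seen, and TATATAGG includes TATATA. Both strands were searched.

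Motifs of common transcription factors were counted as well, on both strands, with the share of all promoters that hold each in parentheses. In the 250 bases before the start, TATAAA, the usual TATA box, was in 0 of 8 members, and in 1 of 8, Prl8a6, once the 50 bases after the start were included (14.2% of all windows of that length). AGATAA, known for factors of the GATA kind, was in 3 of 8 (10.3%), namely Prl7a1, Prl7d1 and Prl8a8. TGANTCA, an AP-1 site, was in 2 of 8 (6.87%), Prl7a1 and Prl7a2. GAGGAA, known for Ets factors, was in 1 of 8 (23.1%), CCAAT in 3 of 8 (34.5%), Prl7a2, Prl7c1 and Prl8a9, and ATGCAAAT, the octamer, in 0 of 8 (1.61%). A match is a description of letters, not of a bound site.

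To set near relatives of unlike level side by side, the 250 bases before the start are printed for Prl8a9 over Prl8a1 and for Prl7a2 over Prl7a1, again from RefSeq GRCm38.p6, minus strand, 5′ to 3′, with TATATA in capitals.
Prl8a9, chr13:27564607-27564856: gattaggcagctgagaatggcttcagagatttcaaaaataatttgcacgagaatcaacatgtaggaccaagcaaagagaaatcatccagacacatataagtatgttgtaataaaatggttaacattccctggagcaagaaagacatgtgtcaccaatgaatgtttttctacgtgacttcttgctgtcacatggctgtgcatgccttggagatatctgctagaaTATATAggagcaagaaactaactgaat
Prl8a1, chr13:27582172-27582421: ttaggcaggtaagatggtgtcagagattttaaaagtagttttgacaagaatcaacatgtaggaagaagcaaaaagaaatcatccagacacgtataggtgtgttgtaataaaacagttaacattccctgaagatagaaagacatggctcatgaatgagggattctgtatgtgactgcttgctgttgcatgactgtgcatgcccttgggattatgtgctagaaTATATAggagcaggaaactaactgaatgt
Prl7a2, chr13:27668037-27668286: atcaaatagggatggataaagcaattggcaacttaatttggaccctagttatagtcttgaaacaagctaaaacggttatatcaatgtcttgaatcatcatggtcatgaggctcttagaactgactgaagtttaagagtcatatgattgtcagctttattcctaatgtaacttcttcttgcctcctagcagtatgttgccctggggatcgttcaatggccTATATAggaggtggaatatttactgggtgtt
Prl7a1, chr13:27642494-27642743: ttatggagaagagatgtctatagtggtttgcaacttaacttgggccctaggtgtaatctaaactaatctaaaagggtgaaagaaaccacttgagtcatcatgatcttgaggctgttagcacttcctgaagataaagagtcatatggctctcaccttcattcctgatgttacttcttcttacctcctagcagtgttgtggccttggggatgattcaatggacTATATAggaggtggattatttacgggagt
The windows of Prl8a9 and Prl8a1 shared 83.1% of their aligned bases, the highest share of the 28 pairs with windows, while their levels differed as given above. Those of Prl7a2 and Prl7a1 shared 77.0%. No relation of these letters to the levels was tested.

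Outside the 10 members, 5 genes were nearest to them in profile. Likeness was the Euclidean distance in log2(CPM + 1) over the 4 libraries from the median of the members, and a small value means near. The nearest genes were Prl2c5, a proliferin (distance 0.0257), Doxl2 (0.214), Prl2b1 (0.273), Ctsm, a cathepsin of the placenta (0.292), and Fbln7, an extracellular matrix protein (0.364). Prl2c5 had 0 counts in both fasted libraries, against 34663 and 35360 in the unfasted libraries. Fbln7 had 3 and 2 counts in the fasted libraries, against 36912 and 36818 in the unfasted libraries.

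Signalling of the prolactin receptor, which the Prl7 and Prl8 proteins are not known to use, was read from 29 genes. Of these, 11 were higher and 17 lower in the fasted libraries by edgeR's quasi-likelihood test, beside 37.2% and 45.0% of all genes tested called higher and lower, and Shc1 did not pass. The median log2 fold change of the list was -0.27. Both receptor genes were higher in the fasted libraries under each of the scalings by median of ratios, TMM, upper quartile and total counts, and lower when scaled to the hepatocyte markers. Those markers did not move alike, with log2 fold changes by median of ratios from 1.13 (Cps1) to 4.36 (Pck1). The sign of a small change under that scaling can thus depend on the markers chosen, and other choices were not tried. Prlr, the prolactin receptor, had 1044 and 1031 counts in the fasted libraries, against 1041 and 956 in the unfasted libraries, which is 76.7 ± 0.626 CPM and 27.0 ± 1.61 CPM (SD, n = 2 each). Its log2 fold change was 2.01 (SE 0.05, adjusted p = 4.7e-10, edgeR's quasi-likelihood test with Benjamini-Hochberg adjustment), but it was -0.24 when libraries were scaled to the hepatocyte markers. Ghr, the growth hormone receptor, had 7516 and 7411 counts in the fasted libraries, against 8155 and 8050 in the unfasted libraries, with a log2 fold change of 1.84 (SE 0.03, adjusted p = 1.8e-11, the same test) and -0.42 with that scaling.

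Among the signalling genes the largest changes were falls. Src, a tyrosine kinase, had 27 and 37 counts in the fasted libraries, against 2848 and 2707 in the unfasted libraries, and a log2 fold change of -4.48 (SE 0.11). Gab2, an adaptor protein, had 37 and 47 counts in the fasted libraries, against 2721 and 2930 in the unfasted libraries, and a log2 fold change of -4.12 (SE 0.11). Socs1, which holds back cytokine signalling, had 2 and 2 counts in the fasted libraries, against 38 and 48 in the unfasted libraries, and a log2 fold change of -2.44 (SE 0.49). Cish, a target of STAT5 that damps the same pathway, was the gene that rose most, with 361 and 396 counts in the fasted libraries, against 276 and 297 in the unfasted libraries, and a log2 fold change of 2.35 (SE 0.08). It was 0.10 and no longer past the test when scaled to the hepatocyte markers. With that scaling, chosen after the data had been seen, 0 genes of the list were higher and 26 lower, and the median of all genes moved from -0.13 to -2.38, against -0.63 with total counts only and -0.01 with upper quartile scaling.

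The 6 genes of gp130 receptor complexes bear on prolactin-like protein E. In edgeR's quasi-likelihood test 5 were lower in the fasted libraries and 1, Cntfr, was higher, beside 45.0% and 37.2% of all genes tested called lower and higher, with a list median of -0.95. Il6st, which encodes gp130, had 1578 and 1495 counts in the fasted libraries, against 8890 and 8823 in the unfasted libraries, and a log2 fold change of -0.57 (SE 0.03). Osmr, the oncostatin M receptor, fell most, with 32 and 32 counts in the fasted libraries, against 1078 and 1135 in the unfasted libraries, and a log2 fold change of -3.16 (SE 0.11). Il6ra, the interleukin 6 receptor, fell by 1.66 on the log2 scale. Il11ra1, an interleukin 11 receptor, had 284 and 317 counts in the fasted libraries, against 2904 and 2897 in the unfasted libraries. Lifr, the receptor of leukemia inhibitory factor, was called lower at a log2 fold change of only -0.06, and with upper quartile scaling it was called higher instead. Cntfr had 21 and 26 counts in the fasted libraries, against 29 and 21 in the unfasted libraries, with a log2 fold change of 1.86 (SE 0.28) that turned to -0.38, not past the test, when scaled to the hepatocyte markers.

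**Figure D5:**
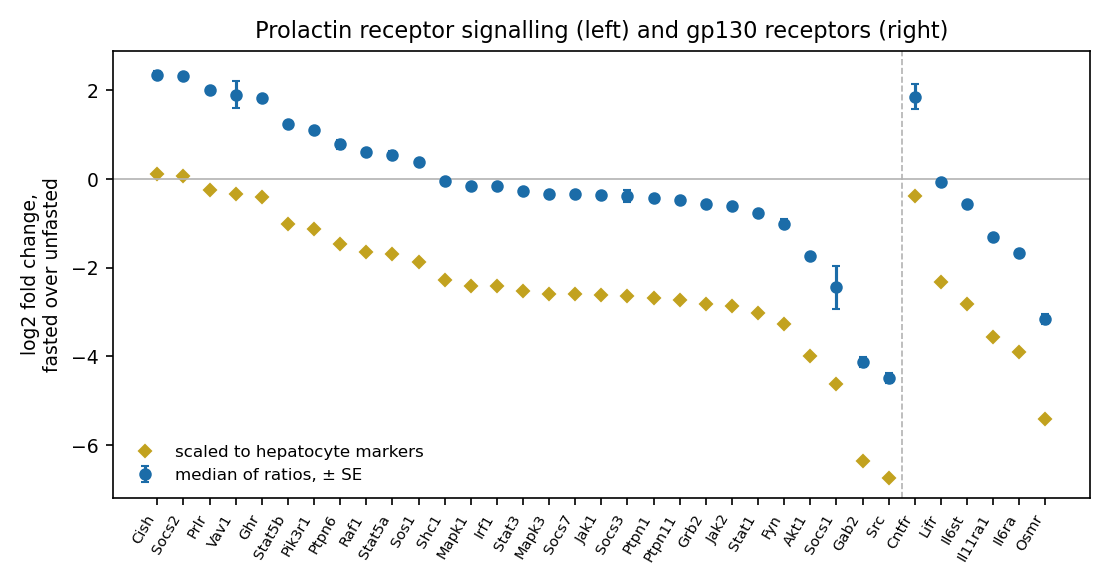
Log2 fold change, fasted over unfasted (vertical axis), of 29 genes of prolactin receptor signalling (left of the dashed line) and 6 gp130 receptor genes (right), with SE bars for median-of-ratios scaling (circles) and without error bars for scaling to the hepatocyte markers (diamonds). The diamonds lie below the circles for each gene, and Prlr changes from 2.01 to -0.24.

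Spongiotrophoblast, giant cell and decidual markers were low in the same libraries as the members. The counts of markers below stand beside 67.3% of all genes tested that were lower in the fasted libraries without overlap and 25.9% that were higher. The 8 spongiotrophoblast markers, headed by Tpbpa, reached a sum of 7.53 and 10.3 CPM in the fasted libraries, against 53970 and 54542 CPM in the unfasted libraries. All 8 were lower in the fasted libraries without overlap, and Ascl2, Phlda2, Psg18 and Ceacam11 were at 0 in both fasted libraries. In the unfasted libraries counts were low for Ascl2 (154 and 171) and for Phlda2 (13 and 16), which did not pass the filter on low counts. For trophoblast giant cells, headed by Hand1, the sum of 7 markers was 0.0738 and 0.148 CPM in the fasted libraries and 12051 and 12134 CPM in the unfasted libraries, all 7 lower without overlap. Hand1, Ctsj and Ctsr were at 0 in the fasted libraries, as were Prl3d1 and Prl2c2, and 3 of the 7, Prl3d1, Prl2c2 and Prl3b1, are themselves prolactin family genes. Prl3b1 alone gave 10042 and 10125 CPM of the sum in the unfasted libraries, so that the sum is mostly that of a gene of the same family.

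The 10 markers of decidual stroma, headed by Hand2, reached a sum of 43.2 and 41.3 CPM in the fasted libraries, against 1470 and 1464 CPM in the unfasted libraries. Of these 9 were lower in the fasted libraries without overlap, Bmp2 was higher, and Hoxa10, Hoxa11 and Pgr were at 0 in both fasted libraries. Uterine natural killer cell markers, headed by Gzmc, reached a sum of 0.517 and 1.11 CPM in the fasted libraries, against 216 and 216 CPM in the unfasted libraries. Of these 6 of 8 were lower without overlap, a share near that of all genes, and 5 granzymes, among them Gzmc, were at 0 in the fasted libraries. Klrb1c was higher, and Ncr1 was near 0 in both groups, with 1 and 1 counts in the fasted libraries, against 2 and 5. The labyrinth list, headed by Gcm1, did not share this direction in its sum, 234 and 233 CPM in the fasted libraries and 192 and 191 CPM in the unfasted libraries, and 5 of its 7 genes were lower without overlap, a share near that of all genes. Gjb2, which is used in liver as well, was its one gene that was higher, and Gcm1, Syna, Synb and Dlx3 were at 0 in both fasted libraries. In the unfasted libraries Synb was at 0 too, and counts were low for Gcm1 (11 and 18), Syna (65 and 69) and Dlx3 (90 and 110).

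Cells of the liver and of blood vessels were present in both groups. Kupffer cell markers, headed by Clec4f, reached a sum of 304 and 298 CPM in the fasted libraries, against 97.0 and 93.6 CPM in the unfasted libraries, all 6 higher without overlap, as were all 14 hepatocyte markers. Endothelial markers, headed by Pecam1, reached a sum of 215 and 210 CPM in the fasted libraries, against 582 and 580 CPM in the unfasted libraries, with 4 of 6 lower, again near the share of all genes, and 2, Stab2 and Clec4g, higher. Erythroid markers, headed by Hba-a1, reached a sum of 191 and 191 CPM in the fasted libraries, against 355 and 333 CPM in the unfasted libraries, with 3 of the 4 matched genes lower. Which cells the Prl7 and Prl8 counts came from was not tested, and with the whole difference lying between the groups, fasting and the tissue content of the libraries cannot be told apart.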

How the data were processed

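The authors deposited raw read counts per gene by Entrez identifier, with no normalization, for 2 fasted and 2 unfasted liver libraries. Named in the submitters' notes on processing are featureCounts, STAR, Trimmomatic, FastQC, MultiQC and DESeq2 1.32.0, with builds GRCm39 and mm39. Strand setting, how reads that map to several places were handled and what each tool did were not given in the sources used here. The reference tables used here follow GRCm38, another build, so they served for names, gene order and sequences only, and 1904 of 27179 identifiers had no name. Libraries held 13528015 to 36975921 counts, and 16123 to 20210 genes had a count.

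Groups follow the sample titles. Counts were tested in R 4.3.3 with edgeR 4.0.16 (filterByExpr defaults, median-of-ratios scaling, quasi-likelihood test, two-sided, Benjamini-Hochberg adjusted p under 0.05, no minimum fold), and with DESeq2 1.42.0 as an alternative. The edgeR test was also run on simulated counts with few changed genes. Most genes differed in these libraries, so that run does not bear on the effect of scaling. The common biological coefficient of variation was 0.00988. Counts of replicates differed slightly more than sampling noise, with a chi-square per gene of 1.11 over 12319 genes in the fasted and 1.13 over 16086 genes in the unfasted libraries. Each library was kept as a replicate, but so small an excess does not show that the libraries came from separate animals. Same-numbered libraries did not deviate together (correlation -0.0035).

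CPM are counts per 1000000 counts of the library. Coding lengths and identity come from the longest complete coding sequence of GENCODE M21, aligned globally with Biopython 1.88, in place of a planned protein comparison that was not run. Promoters come from RefSeq GRCm38.p6. Intervals are at 95% (Wilson for shares, exact for ratios), the floor is 3 counts, and both cover counting error only. Plots used Python 3.11.15 and matplotlib 3.10.9.

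Named genes are all 10 members, the 4 genes with the largest called change in each receptor list with Prlr, Ghr and Il6st, the 3 highest other prolactin family genes, the 5 genes nearest in profile, and the first gene of each marker list given. The result of 1 marker list is not reported here. Others, such as genes at 0 in the fasted libraries, Shc1, Prl, the flanking genes and Xist, were named after their values were seen. The members and lists were chosen with earlier results of these data known.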

Additional observations from a re-analysis of the deposited data

How the results depend on the processing

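Counts of calls over all genes moved most with scaling to the hepatocyte markers, which was chosen after the data had been seen. Genes called higher in the fasted libraries numbered 5756, against 3550 with total counts only and 237 with scaling to the hepatocyte markers, where 14766 genes were called lower, against 6965. With that scaling prolactin receptor signalling had 0 genes higher and 26 lower, gp130 receptor genes had 0 higher, and Prlr (-0.24), Ghr (-0.42) and Cntfr (-0.38) reversed in log2 fold change. These reversed values are small beside the spread of the markers, 1.13 (Cps1) to 4.36 (Pck1) by median of ratios. Their signs can therefore depend on the markers chosen. Upper quartile scaling gave 2 gp130 receptor genes higher. With a minimum of 10 counts in every library 0 other prolactin family genes were called lower, because none was left to test. In the unfasted libraries the Prl7 sum was 2787 CPM, against 2361 scaled by median of ratios and 2381 by TMM, and the Prl8 sum was 14322 CPM, against 12133 and 12237. Prl8 was 5.14 times Prl7 without division by length, against 5.26. A floor of 3 counts per fasted library in place of 3 over the group put the bounds between 335-fold (Prl7a1) and 9438-fold (Prl8a2) lower. The replicate block, whose numbers do not pair the libraries, gave 5743 genes higher and 6929 lower and changed no other call. DESeq2 gave 5061 higher and 6365 lower.

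Leaving out each library in turn gave 5192 to 5311 genes higher and 6066 to 6288 lower, 11 genes of prolactin receptor signalling higher and 14 to 16 lower, 1 gp130 receptor gene higher and 4 to 5 lower, and 13 to 14 other prolactin family genes lower. The lone library of a group is then assumed to vary like the other group. With 2 libraries a group and counts at or near 0 in the fasted libraries, depth limits only how large a fold can be stated for the members.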
